A study of Mus musculus with 24 samples.

Results

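The 8 genes described here, Fabp7, Aldoc, Gfap, Slc1a2, Slc1a3, Aqp4, Glul and Gja1, are known markers or functional genes of astrocytes and were taken by their symbols on the array platform. All 8 were among the 19938 named genes of the series, and all 8 lay above the filter on dim genes, so none was lost. RNA came from the suprachiasmatic nucleus (SCN) of C57/BL6 mice that had been entrained to 12 h of light and 12 h of darkness and were then moved to complete darkness. Collection began at circadian time (CT) 18 and ended at CT 64 in steps of 2 h. Each of the 24 collections filled 1 array, which carried an equal-amount RNA pool of 3 mice. Values are log2 probe set intensities. The second cycle is CT 42 to CT 64 and the first cycle CT 18 to CT 40, with 12 arrays each at the same 12 times of day. No time has a replicate, so errors are standard errors (SE) of a cosine fit over 24 arrays, and the number of arrays limits the precision. Nothing in the labels gives the age of the mice. In bulk tissue, fewer astrocytes and less RNA per astrocyte cannot be told apart.

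Astrocytes clear glutamate and potassium from around synapses, turn glutamate into glutamine, move water at blood vessel endfeet and form a network through gap junctions. In the SCN they surround the pacemaker neurons, and they carry a molecular clock of their own. Fabp7 (brain lipid-binding protein) carries long-chain fatty acids in astrocytes and radial glia. Aldoc is the brain aldolase of glycolysis and Gfap the intermediate filament of the astrocyte cytoskeleton. Slc1a2 (GLT-1) and Slc1a3 (GLAST) are the main astrocytic glutamate transporters, Glul is glutamine synthetase, Aqp4 the endfoot water channel and Gja1 the gap junction protein connexin of astrocytes.

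Of 11 SCN markers, 11 lay above the filter on dim genes. Avp had a median of 11.01 and Vip of 9.99 on the log2 scale, while Lhx1 had 6.72 and Prok2 6.47. The mean of the SCN markers ranged from 8.10 to 9.05 over the arrays. That of markers of neighbouring hypothalamic neurons ranged from 7.80 to 8.70. How much neighbouring tissue the samples held was not tested. The arrays at CT 40, CT 62 and CT 64 stood apart, with interquartile ranges of 2.48 to 2.67 against 2.72 to 2.90 in the other arrays. The mean of 1190 olfactory and vomeronasal receptor genes, called the array background here, was 4.32 to 4.51 in those 3 arrays and 4.01 to 4.20 in the others. They fall at circadian times 14 and 16, so the fits of the members are also given without them. Pituitary markers were highest at CT 20, at 7.78, against a lowest value of 5.31.

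The upstream sequence of Fabp7 is shown because Fabp7 is the member called rhythmic in every fit that was run. It covers the 250 bases before the annotated start, chr10:57784673-57784922 on the plus strand of GRCm38.p6 (RefSeq). Capitals mark the 1 match on either strand to TAGGTCA, the core of the element read by ROR and REV-ERB receptors, here on the minus strand.

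Fabp7: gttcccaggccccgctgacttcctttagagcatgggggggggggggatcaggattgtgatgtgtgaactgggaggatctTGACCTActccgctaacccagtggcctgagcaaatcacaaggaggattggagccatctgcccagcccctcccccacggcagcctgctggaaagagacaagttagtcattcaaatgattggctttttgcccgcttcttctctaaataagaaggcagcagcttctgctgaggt

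The match lies at -171 to -165 from the start, and the same letters were found in 2.23% of 32851 annotated windows of this length. Windows of 7 members were searched, Aqp4 being left out, and Aldoc had a pair of them. Glul held the other match to TAGGTCA, at -58 to -52. The E-box CACGTG (6.02% of all windows), the D-box TTATGTAA or TTACGTAA (0.931%) and the cAMP response element TGACGTCA (1.55%) were in none of the members' windows. A match describes these letters and is not a binding site.

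Fabp7 rose and fell with the circadian day in both cycles. In the second cycle it had a lowest value of 10.11 (CT 62), a median of 10.65 and a highest value of 10.98 (CT 50). In the first cycle it had a lowest value of 9.84 (CT 40), a median of 10.71 and a highest value of 11.34 (CT 30). High arrays were those of the early and middle subjective day, low arrays those of the subjective night. The range over all arrays was 1.49, a 2.81-fold difference of intensity. The SD within pairs of arrays 24 h apart was 0.20.

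In the 24-h fit Fabp7 had an amplitude of 0.46 ± 0.05 (log2, mean to peak) and peaked at 3.50 ± 0.39 h. That is a 1.90-fold difference between peak and trough, with an adjusted p of 1.36e-06 (limma's moderated F test, Benjamini-Hochberg over 13956 genes). By p it ranked 9 of the 13956 genes tested and by amplitude 19. A gene is called rhythmic here where the adjusted p is under 0.05. Of the 8 astrocyte genes 2 were called, Fabp7 and Aldoc, beside 7.65% of all genes tested. At an unadjusted p under 0.05 the counts were 4 of 8 members and 27.5% of genes. The median amplitude was 0.11 in the 8 members and 0.07 in all genes tested.

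Fabp7 was also called in each cycle alone, where calls were rare. The second cycle gave 0.43 as amplitude and 3.68 h as peak time (adjusted p = 0.000827 by limma, with 0.58% of genes called). The first cycle gave 0.50 and 3.34 h (adjusted p = 0.0245, with 0.115% of genes called). The best period between 20 and 28 h was 24.8 h, with a 95% range of 23.1 to 26.5 h. When CT 40, CT 62 and CT 64 were left out its amplitude was 0.40 ± 0.05 at 3.49 h (adjusted p = 9.65e-05), and 4.87% of genes were called. With the array background as a covariate it was 0.39 ± 0.05 at 3.91 h (adjusted p = 9.58e-06), and 3.83% of genes were called. Leaving out any single array gave amplitudes between 0.43 and 0.48, and Fabp7 was called in all 24 of these fits.

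Day and night arrays were set side by side in windows chosen after the values were seen, so this is a description. In the 8 arrays of CT 0 to CT 6 Fabp7 had 10.78 as its lowest value, 10.97 as its median and 11.34 as its highest. In the 8 arrays of CT 12 to CT 18 the lowest was 9.84, the median 10.28 and the highest 10.52. The windows did not overlap for Fabp7, a separation in this direction that 0.416% of genes tested showed. The arrays of the other 7 members overlapped between these windows.

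**Figure D1:**
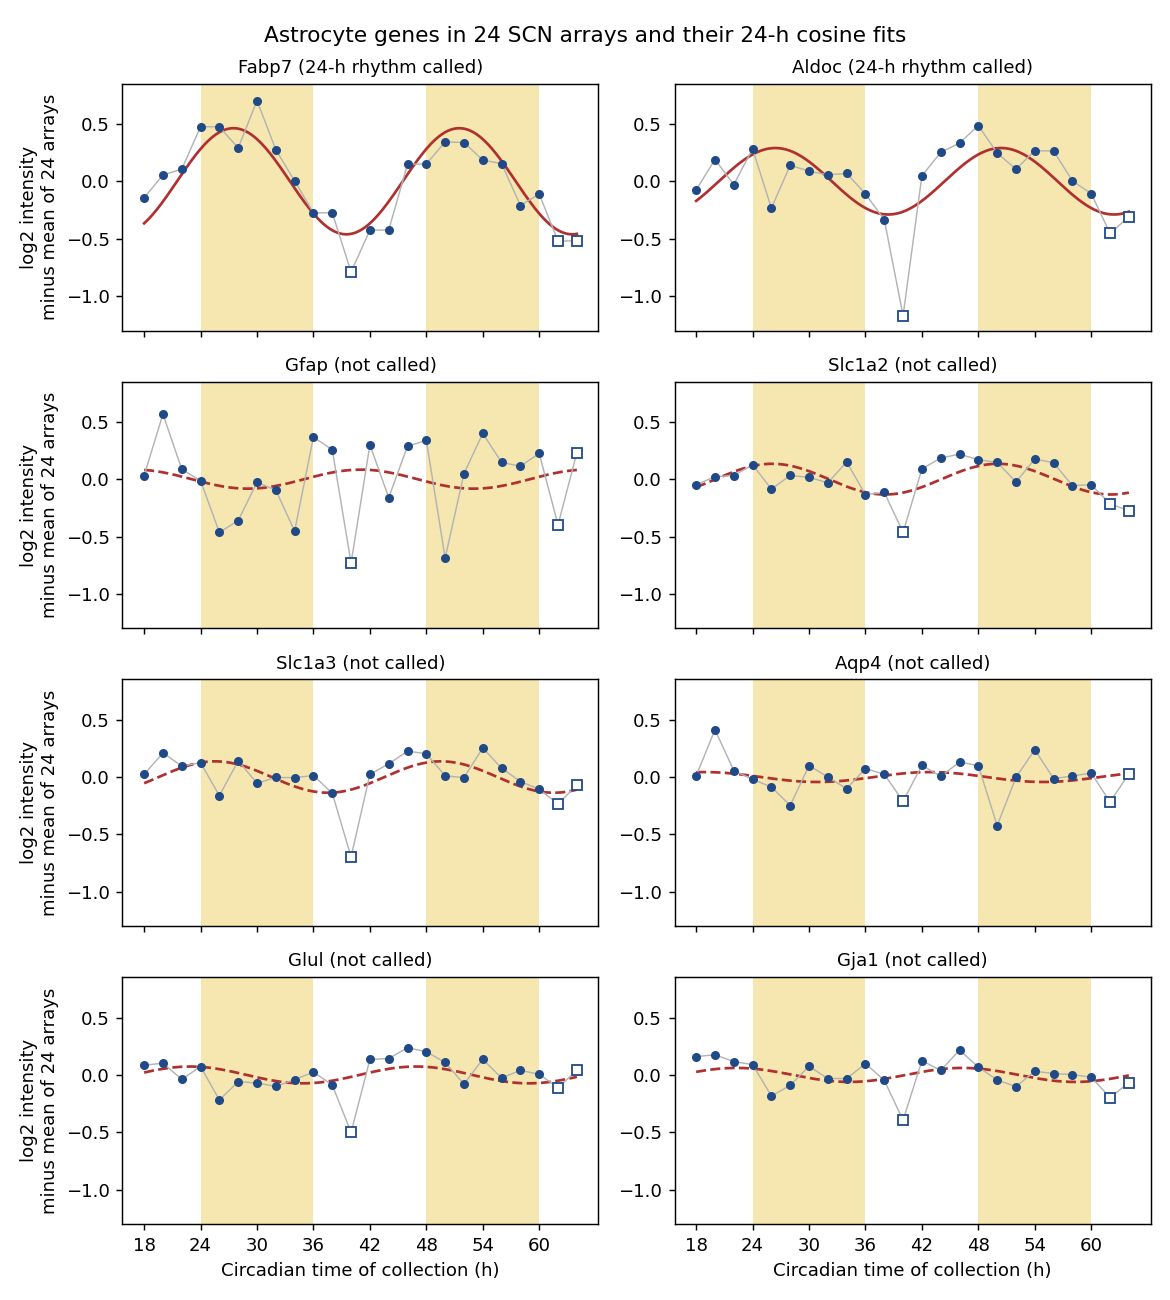
Log2 intensity minus the gene's mean over 24 arrays (y axis) against hours of circadian time (x axis) for each astrocyte gene, with points for arrays, open squares for CT 40, CT 62 and CT 64, and shading for subjective day. Red lines are 24-h cosine fits, solid where called. Fabp7 follows its fit in both cycles, while CT 40 is the lowest array of 7 of the 8 genes, Aqp4 being the exception.

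**Figure D2:**
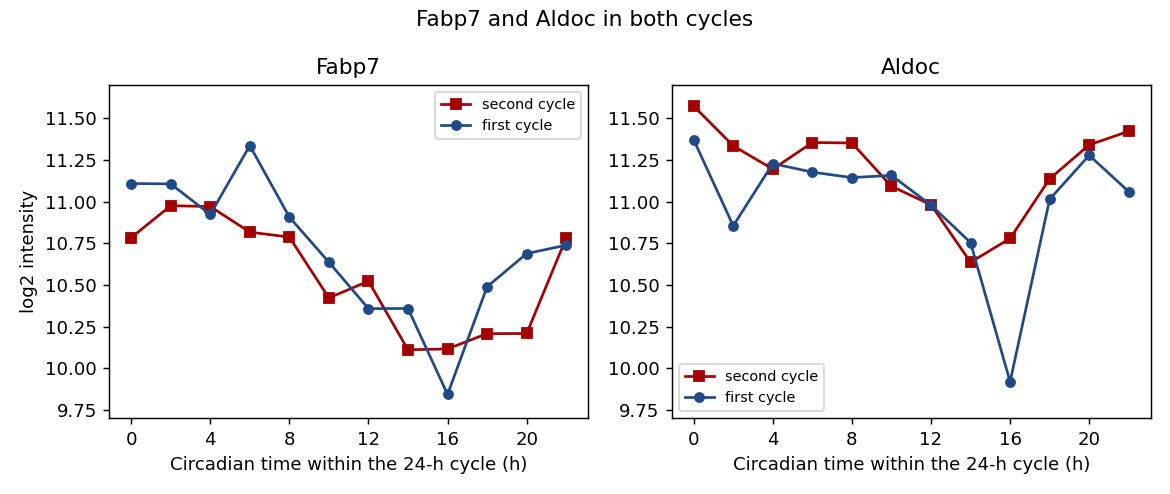
Log2 intensity (y axis) of Fabp7 and Aldoc against circadian time within the cycle (x axis), red squares for the second cycle and blue circles for the first. Both Fabp7 curves peak in the subjective day, and the first-cycle Aldoc curve ranges from 9.92 at CT 40 to 11.37 at CT 24.

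Aldoc was the other called gene, and its call was not kept in every fit. In the second cycle its lowest value was 10.64 (CT 62), its median 11.26 and its highest value 11.57 (CT 48). In the first cycle it had a lowest value of 9.92 (CT 40), a median of 11.10 and a highest value of 11.37 (CT 24). The array at CT 40 lay below all others, and the low second-cycle arrays were again CT 62 and CT 64.

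The fit gave Aldoc an amplitude of 0.29 ± 0.07, a 1.49-fold difference between peak and trough, with a peak at 2.41 ± 0.95 h (adjusted p = 0.0338 by limma). Without CT 40, CT 62 and CT 64 the amplitude was 0.16 ± 0.05 and the call was lost (adjusted p = 0.126). With the array background covariate it was 0.11 ± 0.05 (adjusted p = 0.332). Leaving out single arrays ended the call in 6 of 24 fits, those without CT 24, CT 38, CT 48, CT 50, CT 62 or CT 64 (adjusted p of 0.0514 to 0.0680). In those 6 fits the amplitude was 0.27 to 0.29. Without CT 40 alone it was 0.21 ± 0.05 and the call was kept (adjusted p = 0.0254). Aldoc was not called in either cycle alone, where 12 arrays enter and few genes were called. Its amplitude was 0.31 in the second cycle (adjusted p = 0.0515) and 0.28 in the first (0.528). Over 24 arrays its level correlated with the array background at r = -0.87, given as a description. The other members had negative r too: -0.88 for Slc1a3, -0.84 for Slc1a2 and Gja1 and -0.74 for Glul. That r was -0.63 for Fabp7, -0.46 for Gfap and -0.45 for Aqp4.

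The glutamate transporters did not pass. Slc1a2 had 9.54, 9.93 and 10.04 as the lowest, median and highest value of the second cycle and 9.35, 9.81 and 9.97 of the first. Slc1a3 had 9.61, 9.86 and 10.10 in the second cycle and 9.15, 9.85 and 10.05 in the first. For both, CT 40 was the lowest array, and the cycles overlapped. Amplitudes were 0.13 ± 0.04 for Slc1a2 (peak at 2.08 h, adjusted p = 0.0675) and 0.14 ± 0.05 for Slc1a3 (1.55 h, adjusted p = 0.128). Without CT 40, CT 62 and CT 64 the amplitudes were 0.07 ± 0.03 for Slc1a2 (adjusted p = 0.312) and 0.08 ± 0.03 for Slc1a3 (0.261). Slc1a2 passed when CT 26 (adjusted p = 0.0319) or CT 34 (0.0451) was left out.

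With the mean of oligodendrocyte markers as a covariate 4 members were called: Fabp7, Aldoc, Slc1a2 and Slc1a3. In that fit 24.1% of all genes were called. Amplitudes were 0.48 ± 0.05 for Fabp7 (adjusted p = 2.49e-07), 0.36 ± 0.06 for Aldoc (0.000616), 0.16 ± 0.04 for Slc1a2 (0.00850) and 0.18 ± 0.04 for Slc1a3 (0.00359). With the array background covariate the transporters stood at 0.05 ± 0.03 and 0.01 ± 0.03 (adjusted p = 0.624 and 0.973).

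Glul had 11.51, 11.69 and 11.85 as its lowest, median and highest value in the second cycle and 11.12, 11.57 and 11.72 in the first. The lowest array after CT 40 was CT 26, at 11.40. Its 24-h amplitude was 0.07 ± 0.04 (adjusted p = 0.417), and 0.08 ± 0.03 without the 3 arrays that stood apart (0.218). A second Glul probe set, with values of 9.74 to 10.25, had an amplitude of 0.03 ± 0.04 (adjusted p = 0.866 among all probe sets), and its 24 values correlated with the first at r = 0.74. Both probe sets are annotated to Glul, but where in the genome each one matches, and whether either also reads a copy of the gene, was not examined.

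Gfap, Aqp4 and Gja1 were not called in any fit that was run, although their amplitudes moved with the arrays and covariates used. Gfap varied the most of these between arrays, with 8.07, 8.94 and 9.15 as lowest, median and highest value of the second cycle and 8.02, 8.73 and 9.32 of the first. The lowest Gfap arrays were CT 40 (8.02) and CT 50 (8.07), and the highest was CT 20. The SD within pairs of arrays 24 h apart was 0.35, wider than its 24-h amplitude of 0.08 ± 0.09 (adjusted p = 0.783). Aqp4 had 7.59, 8.04 and 8.26 in the second cycle and 7.77, 8.02 and 8.43 in the first, lowest at CT 50 and highest at CT 20.

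The Gfap amplitude was 0.16 ± 0.08 without CT 40 alone (adjusted p = 0.386), 0.22 ± 0.09 without the 3 arrays (0.246) and 0.25 ± 0.09 with the array background covariate (0.174). For Aqp4 the amplitude was 0.04 ± 0.05 over all arrays (adjusted p = 0.769). It was 0.01 ± 0.04 without CT 20 (0.967), 0.09 ± 0.05 without the 3 arrays (0.417) and 0.10 ± 0.05 with the background covariate (0.366). Gja1 had 9.52, 9.72 and 9.93 in the second cycle and 9.32, 9.73 and 9.89 in the first, with an amplitude of 0.06 ± 0.04 (adjusted p = 0.475) and a peak at 22.3 h. Without the 3 arrays it was 0.09 ± 0.03 at 18.3 h (adjusted p = 0.122), and with the background covariate 0.08 ± 0.02 at 15.9 h (0.130). The oligodendrocyte covariate gave 0.07 ± 0.04 for Gfap (adjusted p = 0.347), 0.05 ± 0.03 for Aqp4 (0.405) and 0.08 ± 0.03 for Gja1 (0.0699). In that fit the peaks lay at 23.5 h for Gfap, 23.1 h for Aqp4 and 23.8 h for Gja1. Without the 3 arrays the Gfap and Aqp4 peaks lay at 15.9 and 16.7 h, so the peak times depended on the fit.

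**Figure D3:**
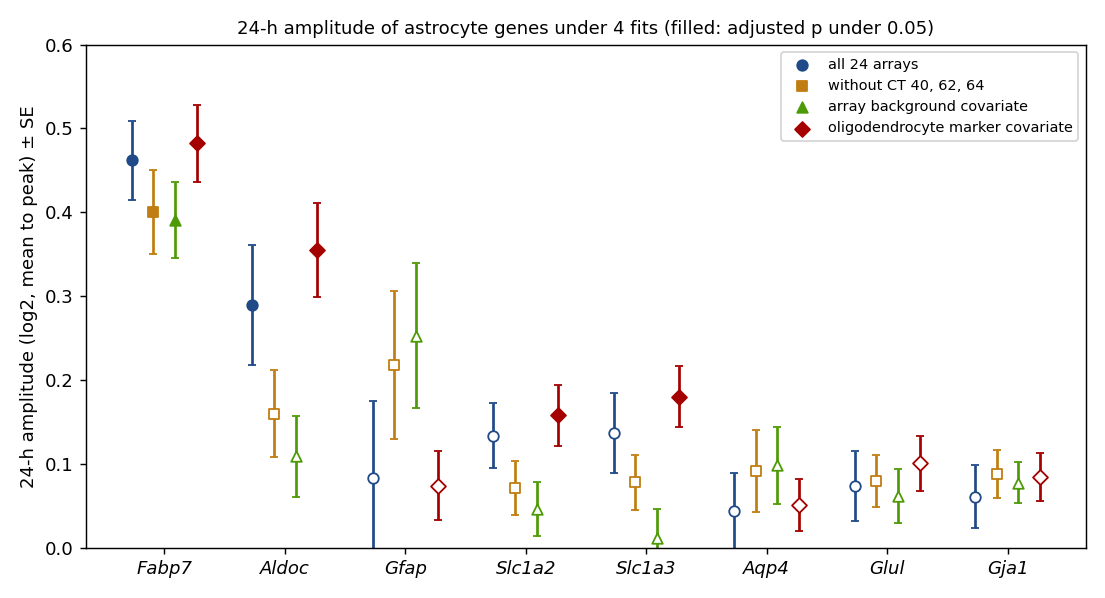
24-h amplitude in log2 units (y axis) of each astrocyte gene (x axis) under 4 fits, with SE bars (cut at 0) and filled symbols where the adjusted p was under 0.05. Fabp7 lies between 0.39 and 0.48 in the 4 fits and is called in each, and Aldoc lies between 0.11 and 0.36.

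Whether Fabp7 and another member differed in rhythm was tested on the difference of their log2 values within each array, for 7 pairs. The amplitude of that difference was 0.54 ± 0.10 against Gfap, 0.49 ± 0.06 against Aqp4, 0.45 ± 0.04 against Gja1 and 0.44 ± 0.06 against Glul. It was 0.35 ± 0.06 against Slc1a3 and 0.34 ± 0.06 against Slc1a2. All 6 passed, with adjusted p from 2.33e-05 to 0.000268 (permutation of the 24 times, one-sided, adjusted over 7 pairs; the smallest p that 100000 permutations can give is 1e-05). Against Aldoc the amplitude was 0.20 ± 0.08 and did not pass (adjusted p = 0.0726). Without CT 40, CT 62 and CT 64 it was 0.28 ± 0.08 and passed (adjusted p = 0.0119), and the other 6 differences also passed (up to 0.000140). Over all 24 arrays the 7 differences peaked between 3.73 h (Gfap) and 5.08 h (Aldoc), in the early subjective day. Without CT 40, CT 62 and CT 64 they peaked between 3.64 and 4.67 h.

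The 21 pairs of members without Fabp7 all had positive correlations over the 24 arrays, though 2 of them did not without CT 40, CT 62 and CT 64. Correlations are descriptions over 24 arrays that share tissue pools and array background. Among the 21 pairs without Fabp7, Pearson's r had a median of 0.70, from 0.24 (Slc1a2 and Aqp4) to 0.93 (Aldoc and Slc1a3), and 15 pairs were above 0.5. Among the 7 pairs with Fabp7 the median was 0.29, from 0.01 (Gfap) to 0.63 (Aldoc). After the 24-h fit was taken out of each gene the medians were 0.27 for pairs with Fabp7 and 0.74 for the others.

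Without CT 40, CT 62 and CT 64 the pairs with Fabp7 had r from -0.37 to 0.27 with a median of -0.21. The others had -0.08 to 0.87 with a median of 0.56, and 11 of 21 were above 0.5. Gfap and Aqp4 formed the closest pair there (0.87), followed by Aldoc and Slc1a2 (0.85). The level of Gfap followed the oligodendrocyte marker mean (r = 0.91), as did that of Aqp4 (0.80) and, less so, Gja1 (0.67). For Fabp7 that r was -0.07. The oligodendrocyte mean itself ranged from 8.27 to 9.25 over the arrays, and its part in the levels of Gfap and Aqp4 was not tested.

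**Figure D4:**
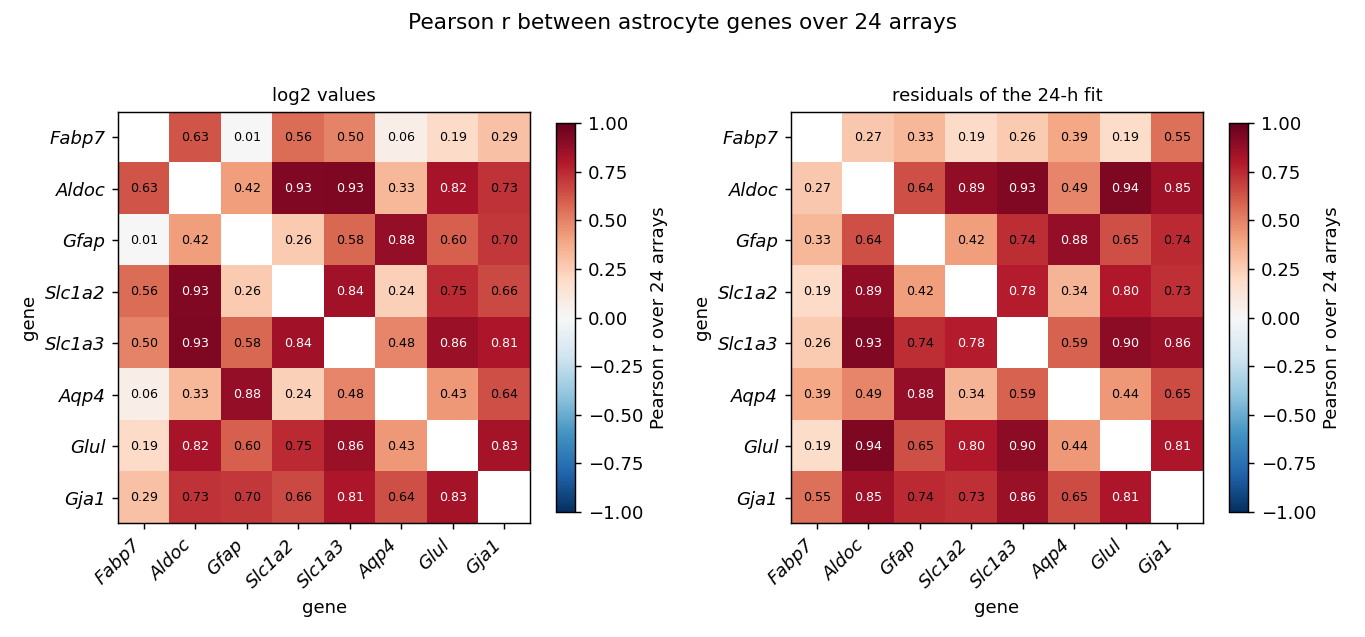
Pearson's r over 24 arrays for each pair of astrocyte genes (rows and columns), from log2 values on the left and from residuals of the 24-h fit on the right. The Fabp7 row is paler than the rest, with 0.01 to 0.63 on the left, and Aldoc, Slc1a2 and Slc1a3 reach 0.84 to 0.93 with each other.

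Levels were then compared between cycles, which asks whether the genes drifted during the days in darkness. None of the 8 members was called, as for 0% of all genes tested. Fabp7 averaged 10.56 ± 0.33 in the second cycle and 10.71 ± 0.41 in the first (SD, n = 12 each), a difference of -0.15 ± 0.06 (adjusted p = 0.504), with lower second-cycle values at 8 of 12 times. Glul averaged 11.69 ± 0.11 in the second cycle and 11.55 ± 0.16 in the first (SD, n = 12 each), a difference of 0.14 ± 0.05 (adjusted p = 0.490). These 2 had an unadjusted p under 0.05, as did 8.71% of all genes (1216 genes). The median difference was 0.08 over the members, 6 of 8 being higher in the second cycle, and 0.003 over all genes. Without CT 40, CT 62 and CT 64 the count was again 0, with 4 members under 0.05 unadjusted, among them Fabp7 (-0.18 ± 0.06, adjusted p = 0.221) and Glul (0.12 ± 0.04, 0.241). With the array background covariate 2 members were called as higher in the second cycle, Aldoc (0.21 ± 0.05, adjusted p = 0.0456) and Glul (0.15 ± 0.03, 0.0365), beside 0.473% of genes. With the pituitary marker mean as a covariate 0 members were called by limma. There the difference was -0.07 ± 0.08 for Fabp7 (adjusted p = 0.734) and 0.17 ± 0.07 for Glul (0.431). On ranks the unadjusted p by limma was 0.356 for Fabp7 and 0.0138 for Glul.

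The 24-h rhythm itself was not called as changed between cycles for any member by limma, nor for any gene (0%), and 0 members had an unadjusted p under 0.05. For Fabp7 the size of the change was 0.08 ± 0.09 (adjusted p = 0.9999), with an upper 95% bound of 0.27, and 0.06 ± 0.08 without the 3 arrays, when 0 members were called. A 12-h rhythm was also called for 0 members, beside 0.0358% of genes. At an unadjusted p under 0.05 the count was 5 of 8 members, against 21.9% of genes. These were Aldoc (amplitude 0.23 ± 0.06, adjusted p = 0.120), Slc1a3 (0.13 ± 0.04), Aqp4 (0.13 ± 0.04), Slc1a2 (0.12 ± 0.03) and Gja1 (0.12 ± 0.03), with adjusted p up to 0.161 and first peaks between 8.29 and 9.18 h. Without CT 40, CT 62 and CT 64 only Aldoc remained under 0.05 unadjusted (amplitude 0.14 ± 0.05), and with the array background covariate 0 members did. The 12-h amplitude of Fabp7 was 0.06 ± 0.05 (adjusted p = 0.640).

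Of other astrocyte markers, 2 of 59 tested genes were called rhythmic, or 3.39%, under the 7.65% of all genes. Slc7a10, a neutral amino acid exchanger, peaked at 4.89 h (amplitude 0.13 ± 0.03, adjusted p = 0.0274). Cxcl14, a chemokine, peaked at 12.4 h (0.12 ± 0.03, adjusted p = 0.0324), and Daam2, a Wnt pathway formin, was next (0.21 ± 0.06, 14.6 h, adjusted p = 0.0518). The median amplitude of the list was 0.08. That order turned round in other fits. The list had 6 of 59 called, or 10.2%, without CT 40, CT 62 and CT 64, against 4.87% of all genes. It had 7 of 59, or 11.9%, with the array background covariate, against 3.83% of all genes. With the oligodendrocyte covariate it had 18 of 59, or 30.5%, against 24.1%. The rise in the first 2 of these fits was not particular to astrocyte markers. Of 10 tested oligodendrocyte markers, 0 were called over all arrays and 3 when CT 40, CT 62 and CT 64 were left out. Adjusting for the array background gave 6 of 10. Slc7a10 and Cxcl14 lost their calls without the 3 arrays and with the background covariate, while Daam2 passed in both (adjusted p = 0.0395 and 0.00625).

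Genes related to single members were counted in the same way. Beside Fabp7, 1 of 4 tested fatty acid and retinoid carriers was called (25.0%, against 7.65% of all genes). It was Fabp3 (amplitude 0.24 ± 0.06, peak at 2.65 h, adjusted p = 0.0251). Fabp3 ranged from 8.27 at CT 40 to 9.69 at CT 24 and lost its call with the array background covariate (0.233). Fabp5 was at 0.09 ± 0.05 (adjusted p = 0.369). Beside Aldoc, 1 of 13 glycolysis genes was called (7.69%, near the share of all genes), the neuronal enolase Eno2 (0.18 ± 0.04, 3.68 h, adjusted p = 0.0352). Without the 3 arrays that stood apart 0 were called, against 4.87% of all genes.

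Beside the transporters and Glul, 2 of 13 glutamate uptake and glutamine genes were called (15.4%, against 7.65% of all genes). They were the cytosolic aspartate aminotransferase Got1 (0.21 ± 0.05, 2.39 h, adjusted p = 0.0156) and the neutral amino acid transporter Slc1a4 (0.14 ± 0.03, 1.15 h, 0.0323). Neither was called without the 3 arrays (0.0932 and 0.0604) or with the array background covariate. Beside Gja1 and Aqp4, 1 of 10 channel and endfoot genes was called, the neuronal connexin Gjd2 (0.16 ± 0.04, 4.45 h, adjusted p = 0.0323). The astrocyte connexin Gjb6 stood at 0.13 ± 0.04 and 15.7 h (adjusted p = 0.112). It was called without the 3 arrays (0.0346) and with the array background covariate (0.0219).

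Beside Gfap, 2 of 10 intermediate filament and reactive genes were called, against 7.65% of all genes. Leaving out CT 40, CT 62 and CT 64 gave 1 of 10, against 4.87% of all genes. The background covariate also gave 1 of 10, against 3.83%. Synm, the filament protein synemin, peaked at 16.6 h (0.12 ± 0.03, adjusted p = 0.0130) and the growth factor Fgf2 at 15.2 h (0.19 ± 0.04, 0.0190). Fgf2 was highest at CT 40, kept its call without the 3 arrays (0.0345) and lost it with the array background covariate (0.107). Synm was not called without the 3 arrays (0.0517) and was called with the array background covariate (0.0226). Vim, the filament partner of Gfap, had 0.18 ± 0.06 with a peak at 16.02 h (adjusted p = 0.0994).

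Fabp7 is also expressed by tanycytes, so markers of the ventricle wall were read beside it. Of 9 measured tanycyte markers 4 passed the filter and 0 were called, against 7.65% of all genes tested. Rax and Nes had medians of 5.25 and 4.73, under the filter of 5.52. Vim, Ppp1r1b, Crym and Col23a1 lay above it, with medians of 8.99, 6.59, 6.58 and 6.26. The tanycyte marker mean, which includes the markers under the filter, ranged from 5.66 to 6.17 and correlated with Fabp7 at r = -0.42. Of 7 ependymal markers 1 was called, Rsph1 (0.14 ± 0.04, 23.9 h, adjusted p = 0.0407), and their mean ranged from 7.92 to 8.47 with r = 0.07. Of the pan-neuronal markers 5 of 10 were called (against 7.65% of all genes), 2 without the 3 arrays (against 4.87%) and 0 with the array background covariate (against 3.83%). Their mean, from 9.55 to 9.97, correlated with Fabp7 at r = 0.60 and with Slc1a2 at 0.84, and its part in these levels was not tested.

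Among all tested genes other than members, the 5 most like Fabp7 over the 24 arrays were called and peaked in the early subjective day. Choosing genes by likeness to a rhythmic gene on the same arrays favours such calls and peaks, so these 5 genes are a description. They were Rgs16, a regulator of G protein signalling (r = 0.84, peak at 3.90 h), the kinase gene Sik1 (0.84, 4.28 h), the small GTPase gene Rasl11b (0.83, 4.13 h), the clock repressor gene Nr1d1 (0.81, 3.89 h) and 2410002F23Rik (0.81, 2.82 h). The gene most like Aldoc was Atp5b, an ATP synthase subunit (r = 0.97, 1.90 h). For the members that were not called, the closest genes were Pmp22 for Gfap (0.92), Dock5 for Aqp4 (0.85), Cdc42bpa for Gja1 (0.91), Serinc3 for Glul (0.90), Sesn3 for Slc1a2 (0.94) and 2610507B11Rik for Slc1a3 (0.96). Pmp22 encodes a myelin protein, and none of these 6 was called rhythmic.

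Set against the clock genes, the peak of Fabp7 at 3.50 h differed from that of Nr1d1 by -0.40 ± 0.53 h, less than its error. It came 5.68 ± 0.90 h after the peak of Arntl (21.8 h), the positive arm of the clock. Relative to Dbp (7.29 h) its difference was -3.79 ± 0.50 h and relative to Per2 (9.53 h) it was -6.04 ± 0.48 h, so Fabp7 peaked before both. Nr1d1 had an amplitude of 0.57 ± 0.05, against 0.46 ± 0.05 for Fabp7. The errors of the peak differences combine the peak SEs of both genes as if independent, although both were read on the same arrays.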

How the data were processed

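Intensities were normalised across arrays by the authors and deposited as log2 values per probe set, made with RMA (version 1.3.1.187) in Affymetrix Expression Console, per the submitters' processing notes. RNA was amplified and biotin-labelled, per the labels. The genome build is not given in the sources used here. Of 35556 probe sets, 21789 had 1 gene symbol. Each gene was represented by its probe set of highest mean. A filter at the 30th percentile of gene means (log2 5.52) kept 13956 genes. Time entered as cosine and sine terms in limma 3.58.1 (R 4.3.3, eBayes), with 21 residual degrees of freedom for the 24-h rhythm and Benjamini-Hochberg adjustment over all genes tested at 0.05. The fits were tested on simulated data. Differences between Fabp7 and other members were tested by permutation in Python 3.11.15. The pools may share batches that the labels do not give, and p-values measure the spread around the fit.

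The members, lists and tests were chosen with earlier results of these data known. The text names each member, 4 clock genes and the closest genes by Pearson's r. It also names up to 3 genes of smallest adjusted p of each list it describes. Avp, Vip, Lhx1, Prok2 and the tanycyte markers are named for their levels.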

Additional observations from a re-analysis of the deposited data

How the results depend on the processing

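The count of 2 rhythmic members was also found with no filter on dim genes, a 50th percentile filter, array weights, ranks, quantile normalisation, all probe sets, a trended prior, median centring, and pituitary or linear time covariates. It was 1 with the array background covariate, without CT 40, CT 62 and CT 64, in the first cycle alone, in the second cycle alone and at a threshold of 0.01, with Fabp7 as the gene called. It was 4 with the oligodendrocyte marker covariate. Leaving out single arrays gave 1 to 3, with Slc1a2 added when CT 26 or CT 34 was left out. For the shift between cycles the count of 0 became 2 with the array background covariate (Aldoc and Glul). The counts of 0 for the change of rhythm and the 12-h rhythm stayed at 0 in the 37 and 38 other fits run. Fabp7 had amplitudes of 0.39 to 0.50 in 38 other fits on the log2 scale and was called in each. Aldoc ranged from 0.11 to 0.36. The causes were not tested. Signal over background is not given with the deposited values, and pools of 3 mice with 1 array a time limit what small amplitudes can be told from 0.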
